A study of Mus musculus with 6 samples.

Results

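The STAT genes encode signal transducers and activators of transcription, and 6 of them, Stat2, Stat3, Stat4, Stat5a, Stat5b and Stat6, were chosen by name from the 23420 genes of the count table. All 6 passed the minimum count and were among the 13682 genes tested. The libraries came from splenic B cells of 3 Ahr+/+ and 3 Ahr-/- mice. In its list of mice the paper uses Ahr-/- for B6.129-Ahr tm1Bra/J, with complete deletion of the aryl hydrocarbon receptor (AhR), and also lists C57BL/6J. The strain behind these libraries is not named separately. The paper also writes Ahr-/- for B cells of mice with deletion in B cells alone. Cells of both genotypes were cultured for 8 h with 10 µg/ml anti-IgM and 20 ng/ml IL-4, and the AhR ligand FICZ was added at 250 nM for the last 4 h. The comparison is therefore of activated cells with and without AhR, all exposed to its ligand. Resting or ligand-free cells were not analysed here. B cells were enriched with an isolation kit (EasySep), so the RNA is that of a bulk preparation, in which fewer cells of a type and less RNA per cell cannot be told apart.

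STAT proteins wait in the cytoplasm until a cytokine receptor is engaged. Janus kinases (JAKs) bound to the receptor then phosphorylate them, and STAT dimers move to the nucleus, bind DNA and activate genes, among them the SOCS family and Cish, whose products dampen the same receptors. In B cells, STAT6 carries the IL-4 signal towards class switching and CD23 expression, STAT3 answers IL-21, IL-10 and IL-6 and takes part in plasma cell formation, and STAT5 answers IL-2 and IL-7 family cytokines. STAT2 works with IRF9 in the complex called ISGF3 that drives interferon-responsive genes, and STAT4 is known best for IL-12 signalling in T and NK cells.

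The libraries held between 22095096 and 53648787 counted reads, with the fewest in Ahr-/- replicate 1 and the most in Ahr-/- replicate 2. Cyp1a1, the classical AhR target, stood at 5246 ± 242 normalized counts with AhR and at 5.36 ± 2.20 without it (SD, n = 3 each), in the direction of the labels. Ahr itself stood at 13175 ± 682 and 9174 ± 472, and because its count covers the whole gene it does not show the loss of an exon. Of the 10 B-cell markers listed, 7 rose in Ahr-/- cells, where 9.79% of all tested genes were called higher, and their summed level was 115366 to 124579 normalized counts in Ahr+/+ and 137110 to 145567 in Ahr-/- libraries.

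Of the 6 STAT genes, 3 passed the threshold of an adjusted p under 0.05, Stat3 and Stat6 being lower and Stat5a higher in Ahr-/- cells. Among all tested genes, 17.9% passed, 8.13% lower and 9.79% higher. The ranges of both genotypes were separate for the same 3 STAT genes, against 33.5% of all tested genes. The median absolute log2 fold change was 0.11 over all tested genes and 0.36 over those that passed, so that Stat3 exceeded the second value while Stat5a and Stat6 were below it. The 6 genes summed to 58633 ± 2477 normalized counts in Ahr+/+ and 57063 ± 754 in Ahr-/- cells (SD, n = 3 each; two-sided exact permutation test, p = 0.5, where 3 against 3 cannot go below 0.1), which was between 0.144% and 0.158% of the counts of a library. Normalized counts are read counts divided by a library factor made from the total and the trimmed mean of M values (TMM), and fold changes are given as Ahr-/- relative to Ahr+/+.

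**Figure D1:**
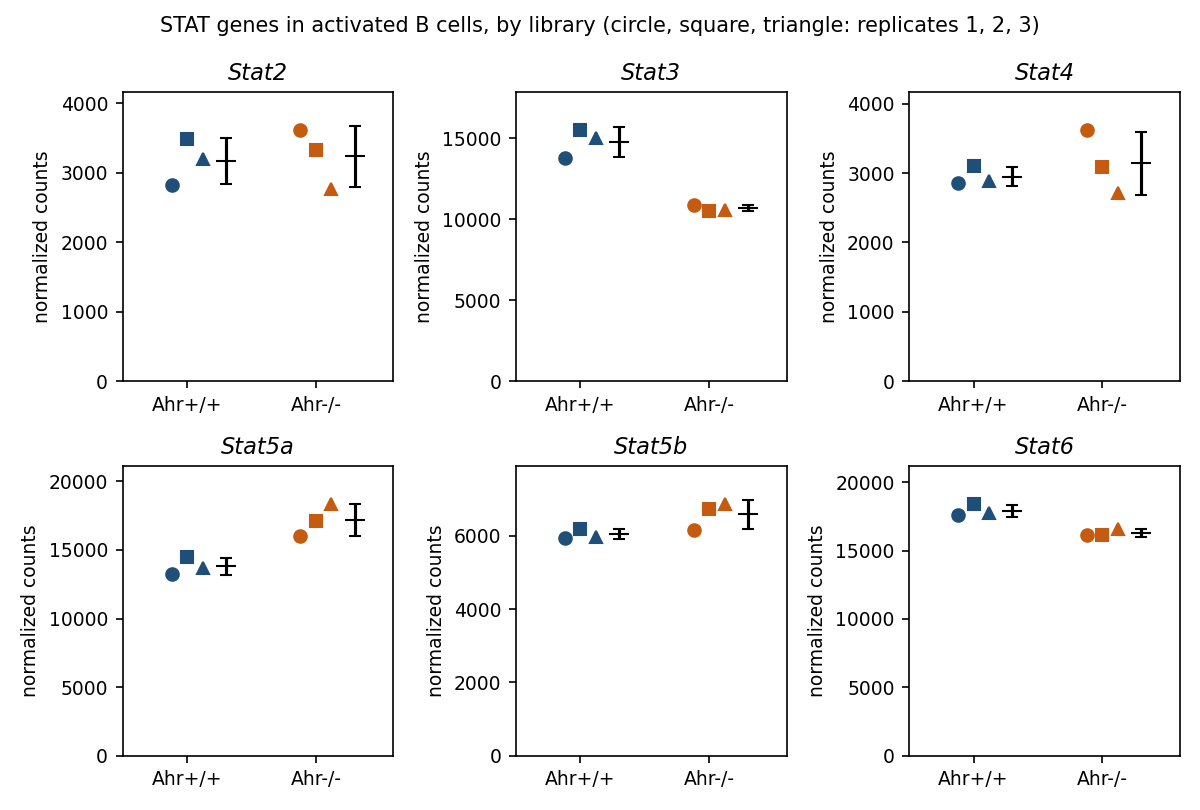
Normalized counts (y axis, from 0) of each STAT gene in the 3 Ahr+/+ (blue) and 3 Ahr-/- (orange) libraries, with the mean and SD in black beside the points. The genotypes are separate for Stat3, Stat5a and Stat6 and overlap for Stat2, Stat4 and Stat5b, and Ahr-/- replicate 1 (circle) is the highest library for Stat2 and Stat4.

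Stat6, the transducer of the IL-4 that all these cells received, fell slightly in Ahr-/- cells. Per kilobase of annotated exon Stat6 was the most abundant of the 6 STAT transcripts in both genotypes. Its normalized counts were 17575, 18409 and 17727 in Ahr+/+ mice. In Ahr-/- mice they were 16138, 16115 and 16616. All 3 Ahr-/- values were below all 3 Ahr+/+ values, and each genotype was tight, with a coefficient of variation of 2.48% and 1.74%. The log2 fold change was -0.14 (SE 0.034, 95% interval -0.21 to -0.061), so the level fell by 9.01% (edgeR quasi-likelihood test, Benjamini-Hochberg adjusted p = 0.0152). Without Ahr-/- replicate 2, the most deeply sequenced library, the log2 fold change was -0.13 and the call was lost (edgeR adjusted p = 0.0799).

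Stat3 was the STAT gene with the largest difference between the genotypes. Normalized counts were 13749.5, 15523 and 15032 in Ahr+/+ mice, against 10881, 10532 and 10593 in Ahr-/- mice. The lowest Ahr+/+ library was far above the highest Ahr-/- library, and the Ahr-/- values were closer to each other than the Ahr+/+ values. The log2 fold change was -0.47 (SE 0.045, 95% interval -0.57 to -0.37), so the level fell by 27.8%, and by p-value Stat3 was number 267 of the tested genes (edgeR adjusted p = 1.05e-05). An exact permutation test on the 6 values gave p = 0.1, the smallest that 3 against 3 allow.

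The core motif bound by AhR with its partner ARNT, GCGTG, was sought on both strands of the 300 bases from 250 before to 50 after each annotated start (RefSeq, GRCm38.p6). For the 6 genes 9 such windows were given, and the core lay in the windows of Stat2, Stat3 and Stat5b and in none of Stat4, Stat5a and Stat6. It lies in 32.4% of all 32851 windows of the mouse, so such a match is common and is given as a description only. The matches of the gene that fell most and of the gene with most matches are given here 5′ to 3′ on the strand of the gene, with the core, or its reverse complement, in capitals. The Stat3 match is at chr11:100939510-100939538 on the minus strand, its core starting at +15 of the transcript, and the Stat2 matches are on the plus strand at chr10:128270252-128270280 (core at -234), chr10:128270483-128270511 (core at -3) and chr10:128270495-128270523 (core at +10).
Stat3: ttatgcatggagGCGTGtcttggccagtg
Stat2 at -234: cctaggtgccttCACGCaccctggtttca
Stat2 at -3: caatgagagtgaCACGCggggagggcgtg
Stat2 at +10: cacgcggggaggGCGTGgctaagctttcg
The part of these matches, and of the single match of Stat5b, in the levels of the genes was not tested.

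Stat5a rose in Ahr-/- cells. Ahr+/+ mice gave 13273, 14459 and 13698 normalized counts. Ahr-/- mice gave 16029, 17077 and 18351. Every Ahr-/- library was above every Ahr+/+ library, the lowest being replicate 1. The log2 fold change was 0.31 (SE 0.050, 95% interval 0.21 to 0.42), or 1.24-fold (edgeR adjusted p = 0.000716).

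Its close relative Stat5b gave 5945, 6189.7 and 5969 normalized counts in Ahr+/+ mice, and 6143, 6732 and 6864 in Ahr-/- mice. Ahr-/- replicate 1 was below Ahr+/+ replicate 2, so the ranges overlapped, while the other Ahr-/- libraries were above all Ahr+/+ libraries. The log2 fold change was 0.13 (SE 0.045, 95% interval 0.028 to 0.23). In edgeR's quasi-likelihood test the adjusted p was 0.0763 (unadjusted 0.0159), and Stat5b did not pass the threshold. It passed without Ahr-/- replicate 1 (log2 fold change 0.17, edgeR adjusted p = 0.0142) and with libraries scaled by total count alone (0.15, edgeR adjusted p = 0.0304). The test of the difference between the relatives used the ratio of their raw counts within a library, which needs no scaling. Stat5a to Stat5b was 2.23, 2.34 and 2.29 in the Ahr+/+ and 2.61, 2.54 and 2.67 in the Ahr-/- libraries, and the ratio was higher in all 3 Ahr-/- libraries by 0.19 on the log2 scale (exact permutation p = 0.1, adjusted over 15 pairs of STAT genes p = 0.1875).

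Stat5a, Stat5b and Stat3 are neighbours on mouse chromosome 11 (GENCODE, GRCm38). Stat5b is at chr11:100780731-100850724 on the minus strand, Stat5a follows at chr11:100859351-100885169 on the plus strand after a gap of 8626 bp, so that their 5′ ends face each other, and Stat3 is at chr11:100885098-100939540 on the minus strand. The 3′ ends of Stat5a and Stat3 overlap by 72 bp of exon. Within this cluster Stat3 fell, Stat5a rose and Stat5b did not pass the test. The relatives also share sequence. Of the 50-base stretches of the protein-coding Stat5a transcripts, 14.7% also occur in transcripts of Stat5b, and 11.1% of those of Stat5b occur in Stat5a. Stat3 and Stat5a share 23 such stretches. Reads from those stretches could be assigned to either gene or dropped, and how the counting treated them is not given in the sources used here. The values of Stat5a and Stat5b are uncertain to that extent.

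The likeness of the relatives reaches to the sequence before an annotated start of each. The best aligned 50 bases without gaps, sought over all pairs of a Stat5a and a Stat5b window, are given here as a description. They lie at chr11:100860418-100860467 on the plus strand for Stat5a and chr11:100822578-100822627 on the minus strand for Stat5b (RefSeq, GRCm38.p6). The best match between windows of other genes was not sought. Capitals mark the 45 bases that are identical, and lower case the mismatches.
Stat5a: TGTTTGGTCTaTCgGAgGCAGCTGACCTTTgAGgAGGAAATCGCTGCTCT
Stat5b: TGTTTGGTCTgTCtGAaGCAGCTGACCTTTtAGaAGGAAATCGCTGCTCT
The stretch begins 66 bases before the Stat5a start and 57 bases before the Stat5b start. Each gene has a further annotated start, and the counts do not tell the starts apart.

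The ratios between STAT genes shifted most where Stat3 was set against Stat5a. Stat3 to Stat5a was 1.04, 1.07 and 1.10 in the Ahr+/+ libraries, so that both had nearly the same read count. In the Ahr-/- libraries it was 0.679, 0.617 and 0.577, a difference of -0.78 on the log2 scale or 0.583-fold. Stat3 to Stat5b went from 2.31, 2.51 and 2.52 to 1.77, 1.56 and 1.54 (log2 difference -0.59), and Stat5a to Stat6 from 0.755, 0.785 and 0.773 to 0.993, 1.06 and 1.10 (log2 difference 0.45). Of the 15 pairs, 8 had separate ranges in the genotypes. With 3 libraries a group each of these had an exact permutation p of 0.1, and the smallest adjusted p over the 15 pairs was 0.1875, so none could pass a threshold of 0.05 in this design.

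**Figure D2:**
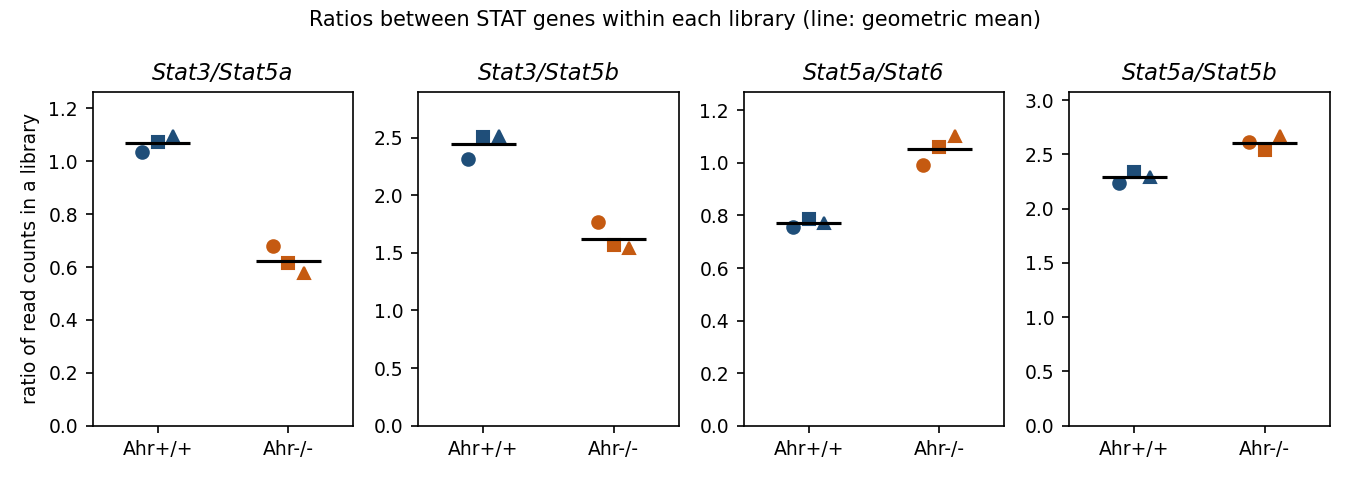
Ratio of raw read counts of a pair of STAT genes within each library (y axis, no unit, from 0) for Ahr+/+ (blue) and Ahr-/- (orange) libraries, with the geometric mean as a line and replicates 1, 2 and 3 as circle, square and triangle. Stat3 relative to Stat5a goes from 1.04 to 1.10 in Ahr+/+ down to 0.577 to 0.679 in Ahr-/- libraries, and Stat5a relative to Stat5b is higher in all 3 Ahr-/- libraries.

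Stat2 did not separate the genotypes but varied within them. Normalized counts were 2828, 3487 and 3194 in Ahr+/+ mice. Those of Ahr-/- mice were 3618, 3323 and 2759.97. The highest and the lowest value both came from Ahr-/- libraries, replicates 1 and 3. The log2 fold change was 0.023 (SE 0.090, 95% interval -0.17 to 0.22, edgeR adjusted p = 0.895), and its sign turned when Ahr+/+ replicate 1 (-0.054), Ahr-/- replicate 1 (-0.056) or Ahr-/- replicate 2 was left out. As a ratio the interval runs from 0.888-fold to 1.16-fold.

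Irf9, which encodes the DNA-binding partner of STAT2 in ISGF3, was at 3463, 3949 and 3863 normalized counts in Ahr+/+ mice, against 4553, 3767 and 2934 in Ahr-/- mice (log2 fold change -0.012, edgeR adjusted p = 0.959). As for Stat2, Ahr+/+ replicate 1 was the lowest Ahr+/+ library, and the Ahr-/- libraries ran from replicate 1, the highest, to replicate 3, the lowest. The 20 listed interferon-responsive genes, such as Isg15, Ifit1, Mx1 and Oas2, include Irf9, so that the sum and Irf9 are not separate observations. They summed to 9316, 13040.5 and 12379 normalized counts in Ahr+/+ and to 15282, 10718.5 and 7236 in Ahr-/- libraries. For all 20 of these genes, Ahr-/- replicate 1 was the highest and replicate 3 the lowest Ahr-/- library. Ahr+/+ replicate 1 was the lowest Ahr+/+ library for all 20. This order was noticed after the values were seen, and its share among all tested genes was not determined. None of the 20 passed the genotype test in edgeR or in DESeq2, and 0 had an unadjusted p under 0.05, where 17.9% of all tested genes passed in edgeR. Without Ahr-/- replicate 1, or without Ahr-/- replicate 3, edgeR called 2 of them. Their median log2 fold change was -0.062, against 0.0022 over all tested genes.

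**Figure D3:**
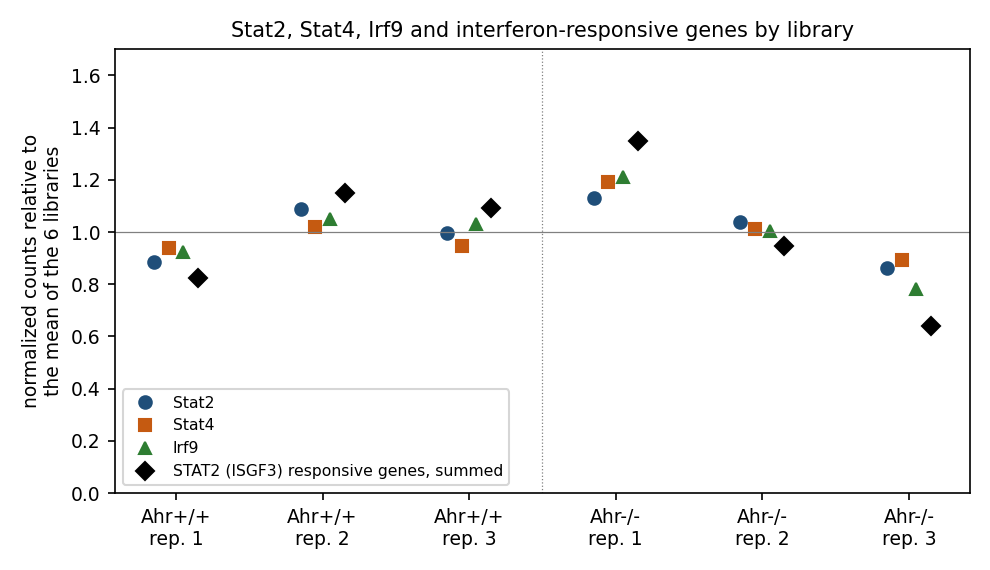
Normalized counts of Stat2, Stat4, Irf9 and the sum of 20 interferon-responsive genes (Irf9 included) in each library, divided by the mean over the 6 libraries (y axis, ratio, from 0). All 4 are highest in Ahr-/- replicate 1 and lowest in Ahr-/- replicate 3, where the sum falls to 0.639 of the mean.

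The promoter window of Stat2 held the core of the interferon-stimulated response element, which ISGF3 binds, taken here as TTTC, any 2 bases and TTTC. The letters were sought on both strands and lie in 3.44% of all 32851 windows. Among the 6 STAT genes, only Stat2 and the second annotated start of Stat4 held them. Both are shown 5′ to 3′ on the strand of the gene with the core in capitals, as a description of the windows that hold it. Its part in the levels of Stat2 and Stat4 was not tested. The Stat2 core, at chr10:128270266-128270295 on the plus strand, begins 222 bases before the start, and the Stat4 core, at chr1:52008133-52008162 and in the opposite orientation, begins 97 bases before it.
Stat2: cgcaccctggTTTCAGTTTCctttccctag
Stat4: aatgtcttcaGAAAGTGAAAtttagaacgg
The STAT dimer motif TTCNNNGAA, sought on both strands as well, lay in none of the 9 windows and in 8.3% of all windows. The form with 4 bases between TTC and GAA lay once, in the Stat2 window, and in 6.95% of all windows. There it lies just after the response element core.

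For Stat4, Ahr+/+ mice gave 2854, 3105 and 2882 normalized counts, and Ahr-/- mice gave 3623, 3081 and 2714. Again Ahr-/- replicate 1 was the highest and Ahr-/- replicate 3 the lowest library, and the coefficient of variation was 4.67% in Ahr+/+ but 14.6% in Ahr-/- libraries. The log2 fold change was 0.082 (SE 0.080, 95% interval -0.092 to 0.26, edgeR adjusted p = 0.548), and without Ahr-/- replicate 1 it was -0.022. Stat2 to Stat4 stayed near 1 in every library, at 0.991, 1.12 and 1.11 in Ahr+/+ and 0.999, 1.08 and 1.02 in Ahr-/- cells. Stat4 lies at chr1:51987148-52107189, where the noncoding gene Gm28177 overlaps it on the same strand, with 1937 bp of Stat4 exon in the overlap. Of the 50-base stretches of the protein-coding Stat4 transcripts, 27.1% also occur in transcripts of Gm28177. Gm28177 is not among the genes of the count table under that name. Reads from it could be counted as Stat4, and the Stat4 level is uncertain to that extent. The 7 NK-cell markers listed, from cells in which STAT4 is well known, summed to 321 to 466 normalized counts in Ahr+/+ and 411 to 652 in Ahr-/- libraries, with 2 higher (Ncr1 and Klrb1c), beside 9.79% of all tested genes. With 1 library left out at a time that count was between 0, as without Ahr-/- replicate 2, and 4, without Ahr-/- replicate 3. The part of these cells in the Stat4 level was not tested.

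Set beside each other as normalized counts per kilobase of annotated exon, the STAT genes kept nearly the same order in both genotypes. In Ahr+/+ cells Stat6 was highest at 4067 ± 101, followed by Stat5a (1936 ± 84.3), Stat3 (1550.1 ± 96.1), Stat5b (1089 ± 24.3), Stat4 (761 ± 35.6) and Stat2 (535 ± 55.7; SD, n = 3 each). The ranges of neighbours in this order did not overlap. In Ahr-/- cells Stat6 was at 3701 ± 64.3, Stat5a at 2405 ± 163, Stat5b at 1188 ± 69.3, Stat3 at 1119.9 ± 19.6, Stat4 at 811 ± 118 and Stat2 at 546 ± 73.6, and the ranges of Stat5b and Stat3 overlapped. Read as a share of the summed level per kilobase, Stat6 made up 40.9% in Ahr+/+ and 37.9% in Ahr-/- cells, Stat5a 19.5% and 24.6%, and Stat3 15.6% and 11.5%.

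The order in Ahr-/- cells depends on the length used. With the longest transcript in place of all annotated exons, Stat3 (1766) was above Stat5b (1262), and Stat5a (4333) and Stat6 (4315) were at the same level in Ahr-/- cells. The order in Ahr+/+ cells was kept, from Stat6 at 4743 and Stat5a at 3489 down to Stat2 at 721. Stat6 lies at chr10:127642986-127660957 and overlaps the opposite-strand gene Nab2 by 40 bp of exon, and Stat2 lies 609601 bp away at chr10:128270559-128292849.

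Of the 4 kinases that phosphorylate STATs, 2 fell, where 8.13% of all tested genes were called lower. Jak2, which serves interferon gamma and several cytokine receptors, was at 12614, 10986 and 11153 normalized counts in Ahr+/+ mice, against 4116, 4267 and 4229 in Ahr-/- mice, a log2 fold change of -1.46 (SE 0.052, edgeR adjusted p = 1.22e-09). Jak1, which binds the IL-4 receptor chain, had 14788, 14354.5 and 14514 and then 10936, 11062 and 11039, a log2 fold change of -0.40 (SE 0.033, edgeR adjusted p = 2.65e-06). Both had separate ranges, and the change of Jak2 exceeded that of every STAT gene. Jak3, which binds the common gamma chain, had a log2 fold change of -0.028 (95% interval -0.16 to 0.10, edgeR adjusted p = 0.807). Tyk2, a kinase of interferon and IL-12 receptors, had 0.076 (95% interval -0.014 to 0.17, edgeR adjusted p = 0.251). Summed, the 4 kinases had 30450 to 31953 normalized counts in Ahr+/+ and 19828 to 20378 in Ahr-/- libraries.

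**Figure D4:**
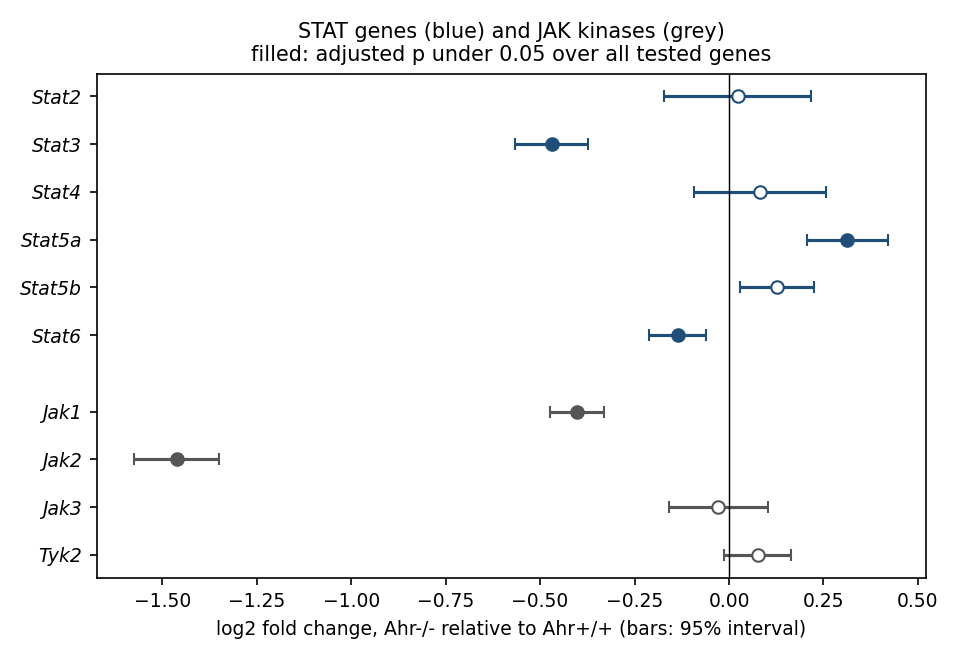
Log2 fold change of Ahr-/- relative to Ahr+/+ (x axis) for the 6 STAT genes in blue and the 4 JAK kinases in grey, with 95% intervals as bars and filled points where the adjusted p was under 0.05. Stat3 at -0.47 and Stat5a at 0.31 lie on opposite sides of 0, and Jak2 at -1.46 lies beyond all STAT genes.

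Of the 24 listed receptors that signal through STATs, 3 fell, 5 rose and 16 did not pass the test, with a median log2 fold change of 0.023, beside 8.13% lower and 9.79% higher among all tested genes. Il21r, whose ligand acts on B cells through STAT3, went from 9268, 10023 and 8995 to 5933, 6273 and 6689.8 normalized counts (log2 fold change -0.58, edgeR adjusted p = 5.76e-06). Il10ra (log2 fold change -0.57) and Il27ra (-0.33), also receptors upstream of STAT3, fell too, while Il6ra, the IL-6 receptor, rose (0.36, edgeR adjusted p = 0.000687). The others that rose were Il10rb (0.19), the second chain of the IL-10 receptor, and the interferon receptor chains Ifnar1 (0.27), Ifnar2 (0.30) and Ifngr2 (0.23), of which the first pair act upstream of STAT2. These 4 were named after their values were seen. The IL-4 receptor chain Il4ra, upstream of Stat6, had a log2 fold change of 0.11 and did not pass the test (edgeR adjusted p = 0.254).

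Of the 17 inhibitors and phosphatases, 3 fell and 1 rose, a share near the 17.9% of all tested genes that passed. Ptpn6, which encodes the phosphatase SHP-1, went from 37838 ± 1023 to 17698 ± 1200.0 normalized counts (SD, n = 3 each), a log2 fold change of -1.10 (edgeR adjusted p = 5.41e-09). Socs5 fell by 1.10 and Cish, a feedback inhibitor and known STAT5 target, fell by 0.34 on the log2 scale. Socs2, another feedback inhibitor induced through STAT5, rose from 140.05 ± 22.2 to 283 ± 29.3 normalized counts (log2 fold change 1.02, edgeR adjusted p = 9.21e-05). Of the 12 cofactors, Tsc22d3 fell (-0.33) and Ndufa13, known as the STAT3-binding protein GRIM-19, rose (0.16), again a share near that of all tested genes. With 1 library left out at a time these 2 calls among cofactors became 0 (without Ahr+/+ replicate 1 or Ahr-/- replicate 2), 1 (without Ahr+/+ replicate 3 or Ahr-/- replicate 1) or 5 (without Ahr-/- replicate 3).

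Genes listed as responsive to a STAT moved both ways. Of 16 genes responsive to IL-4 and STAT6, 3 fell and 6 rose (median log2 fold change 0.10), where 8.13% of all tested genes were called lower and 9.79% higher. Hs3st1, an enzyme of heparan sulfate, went from 563 ± 41.5 to 237 ± 9.47 normalized counts, and the chemokine gene Ccl22 from 787, 848 and 802 to 2104, 2192 and 1354 (log2 fold changes -1.26 and 1.21). Ccl17, another chemokine gene, named after its values were seen, had the highest log2 fold change of the list, 2.62. The survival gene Bcl2l1 rose by 0.64 on the log2 scale.

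Of 12 genes responsive to STAT3, 4 fell and 3 rose (median log2 fold change -0.22). Junb, a subunit of AP-1, had a log2 fold change of -1.15 and Hif1a, of the hypoxia response, one of -0.35, while the kinase gene Pim1 (0.52) and Bcl3 (0.39), an NF-kappaB cofactor, rose. Of 10 genes responsive to STAT5, only Cish fell and 3 rose, Pim1, Bcl2l1 and Socs2 (median 0.16). Several genes stand in more than 1 list, Cish and Bcl2l1 among the STAT5 and the STAT6 genes and Pim1 among the STAT3 and the STAT5 genes. Of 8 genes responsive to STAT4, Hlx (1.27) and Gadd45g (0.66) rose and the others did not pass. Over all lists together, 33 of 111 tested genes passed, 15 lower and 18 higher, where 17.9% of all tested genes passed, 8.13% lower and 9.79% higher. The lists were written with earlier results of these data known.

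**Figure D5:**
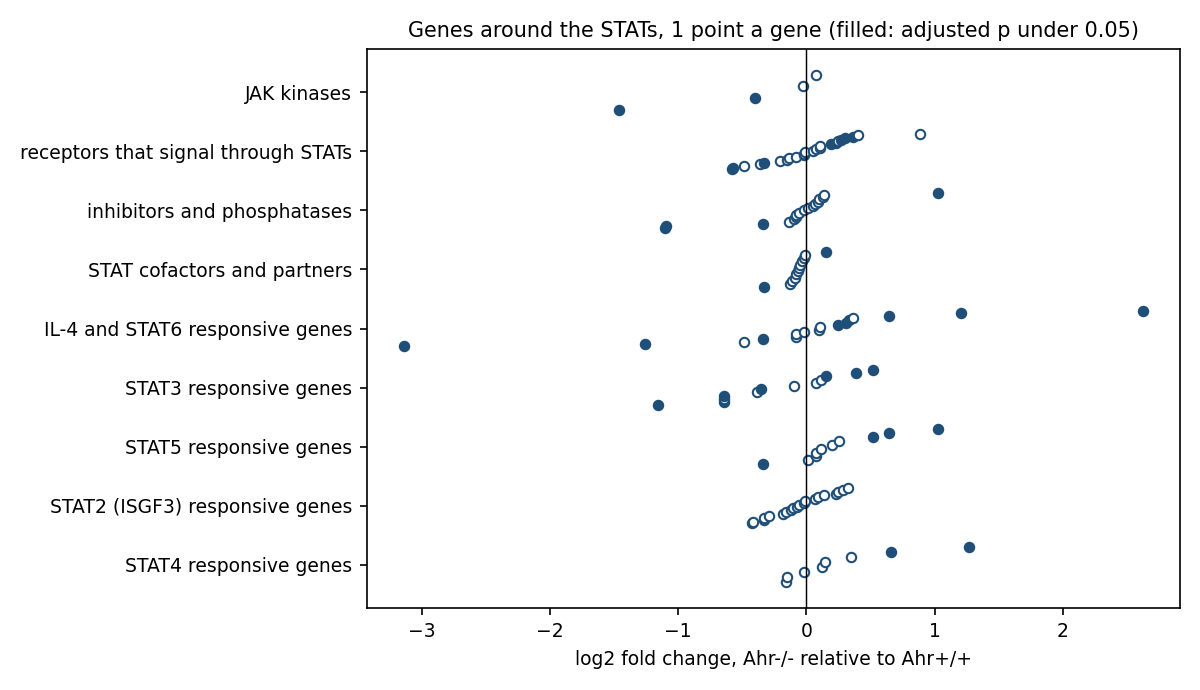
Log2 fold change of Ahr-/- relative to Ahr+/+ (x axis) of each tested gene in 9 lists around the STAT genes (y axis), filled where the adjusted p was under 0.05. Points lie on both sides of 0 in most lists, 2 of 4 JAK kinases are filled on the left, and none of the 20 interferon-responsive genes is filled, beside 17.9% called among all tested genes.

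Over the 6 libraries, the genes with the pattern most like each STAT gene were taken by Pearson r of log2 CPM among the 9690 genes whose normalized counts averaged 100 or more. The libraries are shared by all these values, so r is given as a description. For Stat2 they were Tnfaip2 (r = 0.993), Ifi27l1 (0.986) and Uba7 (0.984). For Stat4 they were Tle6 (r = 0.990), Krtcap2 (0.978) and Rsu1 (0.971). Both STAT genes differed between libraries of the same genotype, whereas for the next 3 r also reflects the difference between the genotypes. Stat3 was followed most closely by Dus2l (r = 0.996), Pigr (0.995) and Wash (0.993), Stat5a by Bend5 (0.998), Bcl7a (0.997) and Syne3 (0.996), and Stat6 by Runx3 (0.996), Sec14l1 (0.994) and Arid5a (0.993). Stat5b was followed by Hcls1 (r = 0.993), Plxnb2 (0.987) and Nomo1 (0.987).

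The lists of markers of other cells had lower summed levels than the B-cell list, and their counts of calls stand beside 8.13% lower and 9.79% higher among all tested genes. The 9 T-cell markers summed to 6094 to 6519 normalized counts in Ahr+/+ and 6065 to 6984 in Ahr-/- libraries, nearly all of it Lck, while Cd3e, which defines T cells, was at 33.9 ± 9.88 and 14.1 ± 0.708 (SD, n = 3 each). Cd3e and Cd28 fell, and the other 7 did not pass. Of 8 markers of plasmacytoid dendritic cells 6 rose and 1 fell, with summed levels of 10782 to 11655 and 9527 to 10178, of which Tcf4, the marker that fell, held 7537 ± 330.3 and 4680.5 ± 226 (SD, n = 3 each), and Siglech, specific to those cells, went from 56.8 ± 4.19 to 269.7 ± 32.3. Of 8 markers of conventional dendritic cells 5 rose and 1 fell, with sums of 826 to 955 and 944 to 1132. Of 7 markers of macrophages and monocytes 2 rose and 1 fell, with sums of 814 to 1085 and 289.9 to 818. The marker that fell was Emr1, whose mean went from 649.7 to 54.1 normalized counts (log2 fold change -3.60), and the other 6 had log2 fold changes above 0. The count of 3 that passed was 1 without Ahr+/+ replicate 1, Ahr-/- replicate 1 or Ahr-/- replicate 2 and 6 without Ahr-/- replicate 3. Of 5 neutrophil markers, edgeR and DESeq2 called 0 and 1 had an unadjusted p under 0.05, while without Ahr-/- replicate 3 edgeR called 2, and of 4 plasma cell markers 2 fell and 1 rose, with sums of 25373 to 28653 and 26009 to 27167. No listed marker was at 0 in all libraries, and the part of these cells in the STAT levels was not tested.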

How the data were processed

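RNA of 6 libraries (TruSeq stranded mRNA) was analysed from the raw read counts per gene that the authors deposited. The submitters' processing notes name TopHat2, HTSeq, DESeq and the build mm10. Read length and the strand setting of the counting are not given in the sources used here. The deposited normalized values and the table of the authors' own comparison (fold changes and p-values) were not used. The 13682 of 23420 genes that summed to 10 or more counts were fitted with edgeR 4.0.16 in R 4.3.3 (quasi-likelihood test, TMM factors, genotype only), with Benjamini-Hochberg adjustment over all tested genes and a threshold of 0.05. Intervals are 95% intervals of the fit. Replicates of a genotype differed by more than counting noise (chi-square per degree of freedom 3.96 to 9.24) and each was counted as 1 sample, which does not show where they came from. The study gives 3 mice per genotype, and p-values measure the spread between these samples. The fit was tested on simulated data. The STAT genes and all lists were chosen with earlier results of these data known. One further gene of the family is not reported here. Named by rule were the JAK kinases, Irf9 and, of each other list, the 4 called genes with the lowest adjusted p and at least 100 mean normalized counts, besides the 3 genes most like each STAT gene by Pearson r. Alternatives were DESeq2 1.42.0, other scalings and filters, a robust fit, a prior count of 2, a replicate block, a threshold of 0.01 and leaving out each library.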

Additional observations from a re-analysis of the deposited data

How the results depend on the processing

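Each STAT gene was refitted under 14 alternatives. Stat3 (log2 fold change -0.52 to -0.43) and Stat5a (0.26 to 0.36) kept their direction and their call in all 14. Stat6 kept its direction in all 14 and its call in 13, and with 1 library left out it lay between -0.15 and -0.12. Stat5b passed the threshold with total count alone (0.15), and lay between 0.095 and 0.17 with 1 library left out. With 1 library left out, Stat2 lay between -0.056 and 0.12 and Stat4 between -0.022 and 0.17, both turning sign. At an adjusted p under 0.01, 1473 in place of 2453 of all tested genes and 2 in place of 3 STAT genes were called, Stat6 (0.0152) being lost. The cause of these changes was not tested, beyond the fewer samples or the stricter threshold. Between libraries of the same replicate number, deviations from the genotype mean had r = -0.15, 0.26 and -0.19. Between libraries of different numbers r ran from -0.35 to 0.37. Not every library correlated best with its own number. With 3 libraries a genotype these values cannot decide whether the numbers pair the samples. With the replicate block, 2303 genes were called, the log2 fold changes of Stat3, Stat5a and Stat6 were -0.47, 0.31 and -0.14, and the same 3 STAT genes passed. Every STAT gene had at least 2108 reads in each library, and 3 libraries a group limit the exact permutation tests to p = 0.1 at best.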
